A study of Mus musculus with 21 samples.

Results

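Integrin subunits are the proteins that pair, 1 α chain with 1 β chain, into the receptors by which cells hold on to matrix and to each other. The 10 subunit genes Itgb1, Itgb2, Itgb3, Itgb7, Itga4, Itga5, Itga6, Itgav, Itgal and Itgax were taken by gene symbol from 3 expression tables of mouse acute myeloid leukaemia (AML) cells, where 16787 genes had a value in at least 1 table. The inhibitor, knockdown and overexpression tables gave a value for 9, 9 and 10 of them, and Itgax was read in the overexpression table alone and is not analysed here in the others. RNA sequencing covered 21 libraries in 8 groups, from AML lines transformed by the fusion proteins NUP98-NSD1 or MLL-AF9 and kept in medium with stem cell factor.

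The groups were as follows. NUP98-NSD1 cells received UNC1999, which inhibits the H3K27 methyltransferases EZH2 and EZH1 of Polycomb repressive complex PRC2, JQEZ5, an inhibitor of EZH2, or the solvent DMSO, each with 3 libraries, at 3 µM of inhibitor over 4 days. NUP98-NSD1 cells were transduced by lentivirus with a short hairpin RNA against Kdm5b, an H3K4 demethylase (shKdm5b), or with the vector that carries no hairpin (shEV), with 3 libraries each, and kept under puromycin. MLL-AF9 cells carried, from a retrovirus, Kdm5b of wild type (WT), the demethylase-dead form H499A, or an empty vector (EV), with 2 libraries each. The labels say neither whether a line is 1 clone, nor whether replicate libraries are separate cultures. The spread behind every p-value can therefore be technical. The shEV control holds no hairpin, so effects of carrying any hairpin cannot be told apart from those of lowered Kdm5b.

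In blood cells the β chain sets the branch of the family. β1 pairs with α4 (VLA-4, which binds VCAM1 and fibronectin), α5 (the classical fibronectin receptor) and α6 (a laminin receptor), while β2 occurs only on leukocytes and pairs with αL (LFA-1, which binds ICAMs) and αX (CD11c, carried by dendritic cells and some monocytes). β7 pairs with α4 into a gut-homing receptor for MAdCAM-1, and β3 pairs with αv into a vitronectin and osteopontin receptor, or with αIIb in platelets. Adhesion through VLA-4 helps leukaemia cells to stay in the marrow, and Itgb3 has been described as a gene that mouse MLL-AF9 leukaemia depends on.

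Reads assigned to genes came to 12812646 to 18928764 per library in the inhibitor table, 21273211 to 34813867 in the knockdown table and 17341257 to 19973218 in the overexpression table. Levels below are normalised read counts, recovered by undoing the variance-stabilising transformation of the deposited log2 values, and each log2 difference is on the deposited scale, which shrinks differences of genes with few reads. Kdm5b had 28.7 ± 5.44 normalised counts with shKdm5b against 74.5 ± 17.8 with shEV (SD, n = 3 each). These came from 17 to 34 reads per library with shKdm5b and 71 to 112 with shEV. Kdm5b did not pass the filter on low values in the knockdown table and was not tested there. Its mean with shEV was already under the filter value of 86.6 normalised counts. As a share of all reads, in RPM, Kdm5b took 2.09 to 3.22 with shEV and 39.3 to 41.3 with DMSO, set side by side with no test. In MLL-AF9 cells Kdm5b had 1413 ± 4.48 normalised counts with WT and 294 ± 21.5 with H499A, against 121 ± 9.89 with EV (SD, n = 2 each). The 2 constructs thus differed 4.8-fold in level, and catalytic activity and construct level cannot be told apart. All 10 markers of a myeloid leukaemia cell (Ptprc, Spi1, Cebpa, Kit, Mpo, Elane, Lyz2, Csf1r, Hoxa9 and Meis1) passed the filter on low values in every table.

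Several of the genes share a chromosome. On GRCm38, chromosome 2 carries Itga6 (chr2:71745616-71858416), Itga4 (chr2:79255426-79333123) and Itgav (chr2:83724397-83806916), all on the plus strand. Chromosome 15 carries Itgb7 (chr15:102215995-102231944) and Itga5 (chr15:103344286-103366763), both on the minus strand, and chromosome 7 carries Itgal (chr7:127296260-127335138) and Itgax (chr7:128129547-128150657). Itgb3 lies at chr11:104608000-104670476, Itgb1 at chr8:128685654-128733200 and Itgb2 at chr10:77530252-77565708. Exons of Itga4 overlap those of Cerkl on the other strand over 1124 bases, and exons of Itgav overlap those of Gm13684 over 634 bases. Whether reads were counted by strand is not given in the sources used here, so reads in those bases cannot be assigned, although Cerkl itself averaged 24.6 normalised counts with WT and 30.0 with EV.

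RefSeq promoter windows (GRCm38.p6, from 250 bases before to 50 bases after the gene start) were matched for 6 of the 10 genes. Below are those of Itga4, which has the largest difference of the family, of Itgb7, whose share of reads differs most between the DMSO and shEV cultures, and of Itga5 and Itgav, which moved with UNC1999. Capitals mark matches, on either strand, of GAGGAA (the core of PU.1-type ETS sites), TGTGGT (RUNX), GGGCGG (the GC box of Sp1), CACGTG (E-box) and TGACTCA (AP-1).
Itga4: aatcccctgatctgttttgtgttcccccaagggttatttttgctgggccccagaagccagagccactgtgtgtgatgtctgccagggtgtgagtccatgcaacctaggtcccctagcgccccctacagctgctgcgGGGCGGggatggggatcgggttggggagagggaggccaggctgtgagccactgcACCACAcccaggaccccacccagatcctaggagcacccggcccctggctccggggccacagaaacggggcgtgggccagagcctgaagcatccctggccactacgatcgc
Itgb7: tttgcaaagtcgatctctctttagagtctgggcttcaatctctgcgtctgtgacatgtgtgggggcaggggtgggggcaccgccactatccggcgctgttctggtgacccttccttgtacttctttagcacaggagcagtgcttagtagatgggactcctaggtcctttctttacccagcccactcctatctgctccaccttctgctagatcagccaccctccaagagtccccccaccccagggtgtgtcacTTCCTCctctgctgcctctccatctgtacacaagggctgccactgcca
Itga5: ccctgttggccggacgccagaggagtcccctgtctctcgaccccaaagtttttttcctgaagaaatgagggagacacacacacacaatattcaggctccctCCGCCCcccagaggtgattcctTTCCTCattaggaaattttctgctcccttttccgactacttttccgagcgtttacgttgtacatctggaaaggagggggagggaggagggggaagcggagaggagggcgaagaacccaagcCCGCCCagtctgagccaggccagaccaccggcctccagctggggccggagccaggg
Itgav: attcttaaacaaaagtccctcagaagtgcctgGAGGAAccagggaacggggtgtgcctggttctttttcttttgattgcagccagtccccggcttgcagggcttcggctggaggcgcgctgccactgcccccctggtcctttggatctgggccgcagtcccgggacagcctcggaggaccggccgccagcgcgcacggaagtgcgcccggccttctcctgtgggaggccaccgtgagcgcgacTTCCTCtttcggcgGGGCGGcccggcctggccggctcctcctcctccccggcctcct
These windows are chr2:79255176-79255475 (plus strand), chr15:102231886-102232185 (minus strand), chr15:103366742-103367041 (minus strand) and chr2:83724147-83724446 (plus strand). The Itga4 window held 1 RUNX match, written ACCACA on the printed strand, and 1 GC box. The Itgb7 window held 1 ETS match, the Itga5 window 1 ETS match and 2 GC boxes, and the Itgav window 2 ETS matches and 1 GC box, and no match overlapped another. Over all 27025 promoter windows, 28.3% held GAGGAA, 16.9% TGTGGT, 35.9% GGGCGG, 7.24% CACGTG and 5.17% TGACTCA, so such matches are common and are given as a description. CpG dinucleotides numbered 10 in the Itga4 window, 5 in Itgb7, 13 in Itga5 and 24 in Itgav, beside a median of 7 and quartiles of 3 and 21 over all windows. Itgb1, with 27, was the richest of the 6, and Itgax had 5.

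Scaled by exon length, Itgb1 or Itgb2 led the family in every control culture. In DMSO, the level per kb of exon was highest for Itgb2, at 3529 ± 38 normalised counts per kb, followed by Itgb1 at 1794 ± 43.9 (SD, n = 3). The α chains and the other β chains followed far below in DMSO, with Itga6 at 253 per kb, Itgal at 201, Itgb7 at 182, Itga5 at 148, Itga4 at 131, Itgb3 at 109 and Itgav at 62.3. No 2 neighbours in that order had overlapping libraries.

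The order differed in shEV cells, which are also NUP98-NSD1 cells. There Itgb1 led at 2099 ± 19.2 normalised counts per kb of exon and Itgb2 came second at 1419.9 ± 56.7 (SD, n = 3), then Itga6 at 393, Itga5 at 258, Itga4 at 248, Itgal at 197, Itgav at 87.4, Itgb3 at 28.2 and Itgb7 at 1.59. As a share of all reads, in RPM, Itgb7 took 32 to 35.2 in the DMSO libraries and 0.0882 to 0.201 in the shEV libraries. Itgb3 took 40.7 to 43.5 RPM with DMSO and 5.03 to 6.07 with shEV. The tables were normalised separately and the cultures were handled differently, so these levels are set side by side with no test.

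In MLL-AF9 cells with EV, Itgb1 led at 1440.0 ± 11.5 normalised counts per kb of exon, and Itga4 came second at 711 ± 5.76 (SD, n = 2). Itgb2 at 621 per kb, Itgb7 at 569, Itgal at 452, Itga6 at 299, Itgb3 at 224, Itga5 at 137, Itgav at 60.0 and Itgax at 51.5 followed in EV cells. In shEV and EV cells, too, no neighbours overlapped. These orders depend on the length used, for Itga4 and for other subunits. The annotated exons of Itga4 run to 13978 bases and its coding part to 3096. By coding length Itga4 ranked 4th in DMSO, 3rd in shEV and 1st in EV. Itgb7 moved from 5th by exon length to 9th by coding length in DMSO. In EV, Itga6 moved from 6th to 3rd and Itgb2 from 3rd to 5th.

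**Figure D1:**
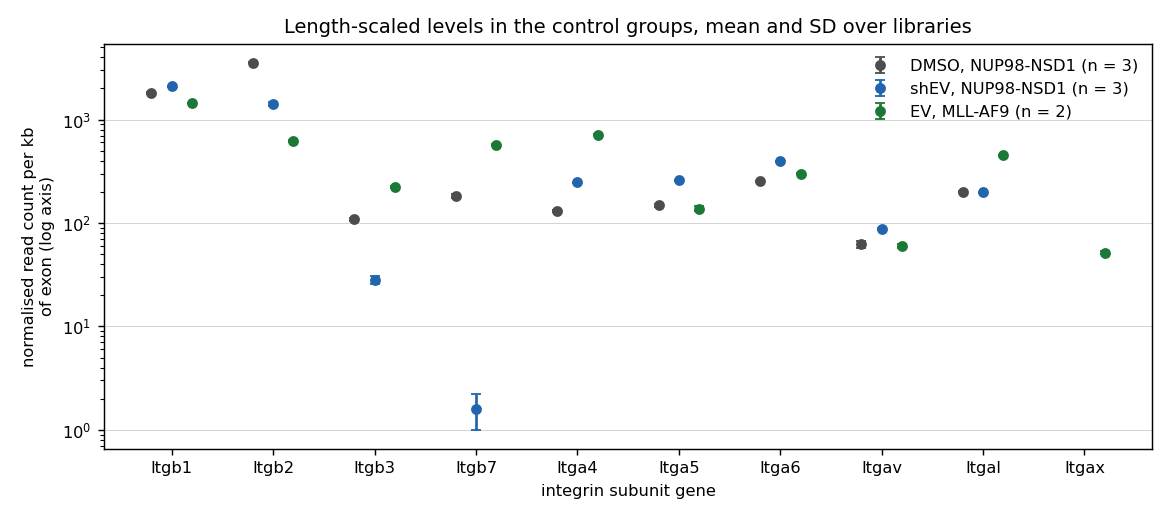
Mean level of each subunit in the 3 control groups, in normalised read counts per kb of exon on a log axis, with bars for the SD over libraries (n = 3 for DMSO and shEV, n = 2 for EV). Itgb1 and Itgb2 stand at 621 per kb or more in all 3 groups, and Itgb7 with shEV is lowest of all, at 1.59 per kb.

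UNC1999 raised most of the measured subunits in NUP98-NSD1 cells and lowered Itgb3 and Itgal. At a limma adjusted p under 0.05 over all 10694 genes tested, 8 of 9 subunits were called, 6 higher and 2 lower, where 47.9% of all genes were called, 23.9% higher and 24% lower. With JQEZ5, 6 of 9 were called against the same DMSO libraries, 3 higher and 3 lower, with 23.6% of all genes called, 13.1% higher and 10.5% lower. The median log2 difference of the 9 subunits was 0.37 with UNC1999 and 0.07 with JQEZ5, beside -0.01 and 0.01 over all genes tested.

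Itgb3, the β chain of the vitronectin receptor, fell with both inhibitors. It had 275, 272 and 373 normalised counts in the UNC1999 libraries and 349, 308 and 283 in the JQEZ5 libraries, against 657, 655 and 619.5 in the DMSO libraries. Every inhibitor library lay well below the lowest DMSO library, and UNC1999 replicate 3 was the highest of its group. The log2 difference was -0.75 ± 0.07 (SE) for UNC1999 and -0.73 ± 0.07 for JQEZ5, at limma adjusted p of 3.39e-07 and 1.62e-06. By absolute log2 difference Itgb3 ranked 215 of 10694 genes with UNC1999 and 57 with JQEZ5. Between UNC1999 and JQEZ5 the interval of its log2 difference was -0.18 to 0.12 (95%), and the difference did not pass the test (limma adjusted p = 0.81).

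Itgb1, the partner of the matrix-binding α chains, rose with both. Its libraries held 9914, 9915 and 9637 normalised counts with UNC1999 and 8479, 8936 and 8639.6 with JQEZ5, against 7472, 7124 and 7373 with DMSO. The 3 groups did not overlap, in the order UNC1999, JQEZ5, DMSO, at 1.34 and 1.19 times the DMSO mean (limma adjusted p = 1.16e-08 and 1.79e-05).

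Itga6, the laminin receptor chain, had the largest rise of the 9 with each inhibitor. It had 3699, 3834 and 3983 normalised counts with UNC1999 and 2692, 2876 and 2695 with JQEZ5, against 2259, 2280.4 and 2307 with DMSO. Again no library of a group reached into the next. The log2 difference from DMSO was 0.70 ± 0.03 (SE) with UNC1999, 1.68-fold, and 0.25 ± 0.03 with JQEZ5, 1.21-fold (limma adjusted p = 1.89e-10 and 7.34e-05).

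Itga5 and Itgav, the α chains of the fibronectin and vitronectin receptors, were called with UNC1999 and not with JQEZ5. Itga5 had 1074, 1079 and 1126 normalised counts with UNC1999 and 835, 711 and 778 with JQEZ5, against 736, 695 and 755 with DMSO. Itgav had 955, 961 and 1126 with UNC1999 and 688, 832 and 751 with JQEZ5, against 685, 609 and 713 with DMSO. For both genes all UNC1999 libraries were above all others, while JQEZ5 and DMSO libraries overlapped. Itga5 stood at 1.5 times DMSO with UNC1999 (limma adjusted p = 6.58e-07), and with JQEZ5 the interval of its log2 difference was -0.03 to 0.17 (limma adjusted p = 0.343). For Itgav the UNC1999 ratio was 1.52 (limma adjusted p = 1.57e-05), and the JQEZ5 difference from DMSO was 0.14 ± 0.06 (SE, limma adjusted p = 0.141). The direct comparison of the inhibitors called both genes higher with UNC1999, at 1.41 and 1.34 times JQEZ5 (limma adjusted p = 8.61e-06 and 0.000661).

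Itga4, the α chain of VLA-4, rose with both inhibitors. Its libraries held 2289, 2507 and 2495 normalised counts with UNC1999 and 2248, 2314 and 2044 with JQEZ5, against 1813, 1785 and 1891 with DMSO. All inhibitor libraries were above all DMSO libraries, at 1.33 and 1.2 times DMSO (limma adjusted p = 5.3e-06 and 0.000972). UNC1999 and JQEZ5 libraries overlapped, and their difference of 0.13 ± 0.04 log2 units (SE, limma adjusted p = 0.0319) lost its call without UNC1999 replicate 2 or 3 or JQEZ5 replicate 3 (limma adjusted p = 0.115, 0.0858 and 0.184).

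The leukocyte branch moved in both directions. Itgb2 rose with UNC1999, with 12539, 12444 and 12374 normalised counts and 10825, 10567 and 10793 with JQEZ5, against 10639, 10860.0 and 10811 with DMSO. UNC1999 libraries stood apart at 1.16 times DMSO (limma adjusted p = 4.92e-06), and JQEZ5 and DMSO libraries overlapped, with an interval of -0.06 to 0.05 log2 units for the difference (limma adjusted p = 0.906). Itgal, the α chain of LFA-1, was lower with both, at 1129.9, 1145 and 1029 with UNC1999 and 949, 835 and 877 with JQEZ5, against 1314, 1355 and 1299 with DMSO. The 3 groups of Itgal libraries were separate, with JQEZ5 lowest, at 0.833 and 0.671 times DMSO (limma adjusted p = 0.000755 and 1.21e-06).

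Itgb7, the gut-homing β chain, fell with JQEZ5. It had 514, 503 and 448 normalised counts with UNC1999 and 419, 391 and 366 with JQEZ5, against 532, 484 and 499.6 with DMSO. JQEZ5 libraries were all below the others, at 0.775 times DMSO (limma adjusted p = 0.00179). UNC1999 and DMSO libraries overlapped, and the interval of their log2 difference was -0.15 to 0.07 (limma adjusted p = 0.587).

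Directly compared at the same dose and time, 8 of 9 subunits were higher with UNC1999 than with JQEZ5, all but Itgb3, where 36.4% of all genes were called, 18.7% higher and 17.7% lower. This is the comparison of the 2 compounds that does not share DMSO. The ratios of UNC1999 over JQEZ5 ran from 1.1 for Itga4 to 1.41 for Itga5, with 1.39 for Itga6, 1.25 for Itgb7, 1.24 for Itgal, 1.16 for Itgb2, 1.34 for Itgav and 1.13 for Itgb1. Itgal and Itgb7 thus stood above their JQEZ5 levels in UNC1999 cells (limma adjusted p = 0.000417 and 0.00361), although the 2 inhibitors' own differences from DMSO for Itgal were both negative.

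**Figure D2:**
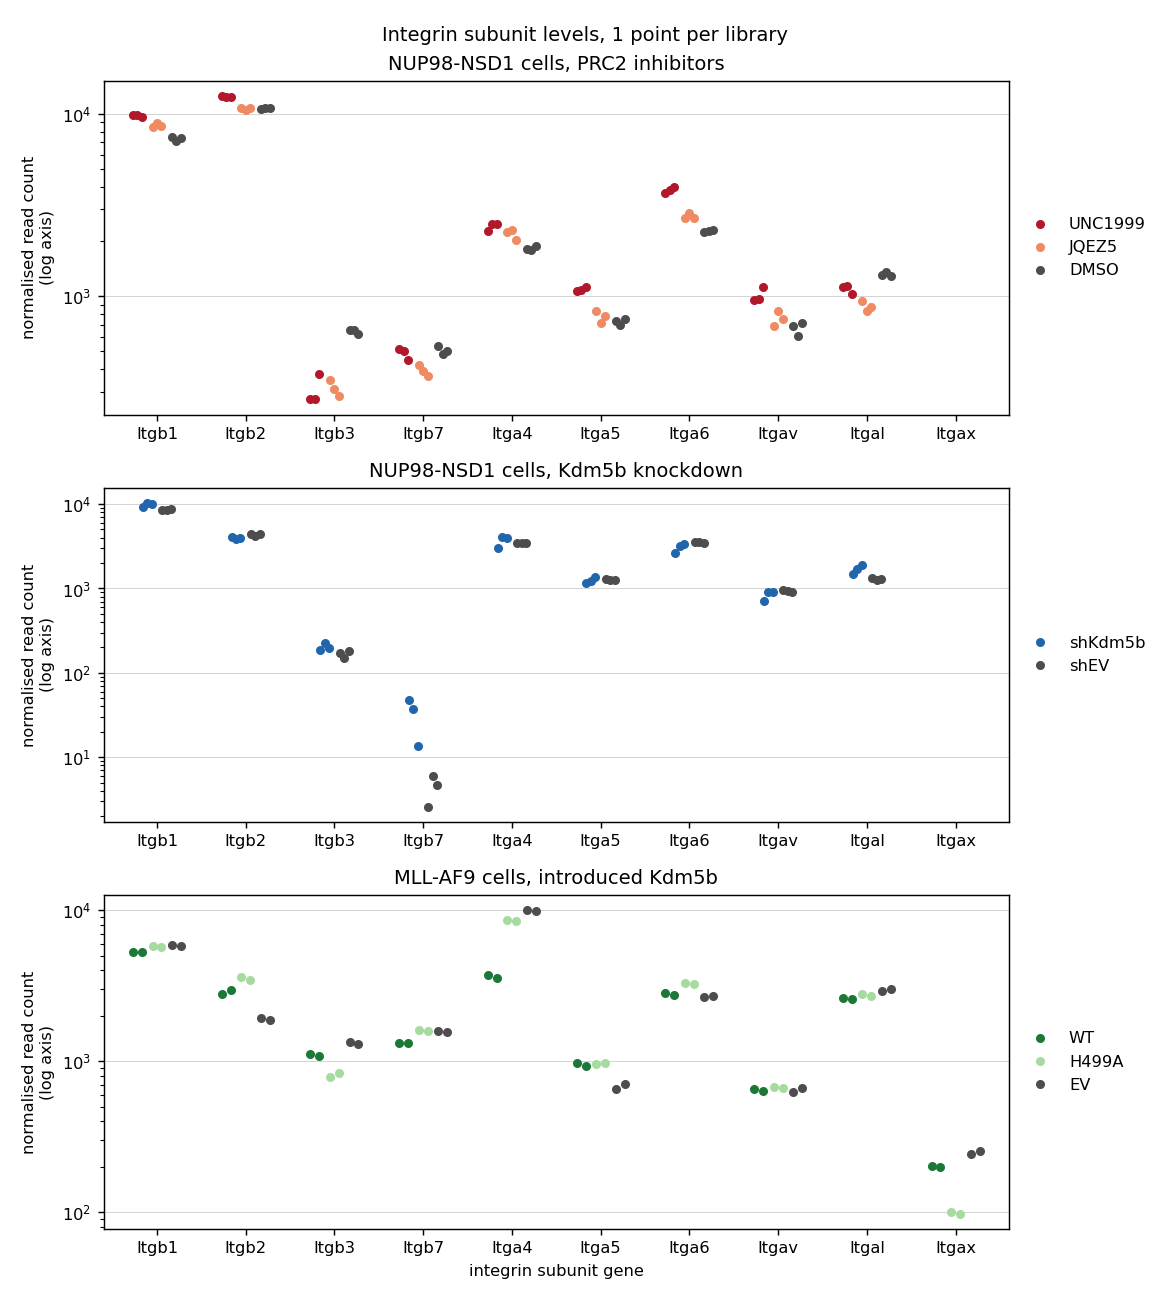
Normalised read count of every subunit (log axis), 1 point per library, in the inhibitor (9 libraries), knockdown (6) and overexpression (6) experiments. Itgb3 is the gene whose UNC1999 and JQEZ5 points both lie far below DMSO, Itgb7 the one whose shKdm5b points lie far above shEV at a low level, and Itga4 the one whose WT points lie far below EV.

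Markers of more mature myeloid cells moved with the inhibitors as well. Monocyte and macrophage markers, 9 of 12 with values, summed to 31884 to 32591 normalised counts with UNC1999 and 22788 to 23104 with JQEZ5, against 18085 to 18189 with DMSO. Of the 9 tested, 7 rose and 1 fell with UNC1999, and 6 rose and 3 fell with JQEZ5. Among these, Mrc1 passed the filter of 59.0 normalised counts only through the UNC1999 and JQEZ5 libraries. Neutrophil markers, 7 of 10 with values, summed to 9378 to 9839 with UNC1999 and 4070.2 to 4351 with JQEZ5, against 2935 to 3003 with DMSO. Of 5 tested, 4 rose and 1 fell with UNC1999, and 3 rose and 1 fell with JQEZ5. Of those that rose, S100a9 passed the filter only through the UNC1999 and JQEZ5 libraries, and Mmp9 only through the UNC1999 libraries. Their calls therefore follow in part from the filter. Most of the neutrophil sum was Mmp8, a collagenase of neutrophil granules, at 7735 ± 213 with UNC1999 and 3138 ± 106 with JQEZ5, against 1929 ± 16.5 with DMSO. The marker that fell was Cxcr2, a chemokine receptor, at 181 ± 15.6 with UNC1999 and 228 ± 19 with JQEZ5, against 797 ± 28.9 with DMSO (SD, n = 3 each). Megakaryocyte and platelet markers, 8 of 12 with values, summed to 1977 to 2034 with UNC1999 and 974 to 1052 with JQEZ5, against 359.7 to 404 with DMSO. Vwf alone had 1872 ± 21.3 with UNC1999 and 925 ± 30.3 with JQEZ5, against 252 ± 17.5 with DMSO (SD, n = 3 each), and was the single marker of that list to pass the filter. Of the 8, 2 had a lower mean with UNC1999 than with DMSO and 5 with JQEZ5 (Pf4, Ppbp, Gp1ba, Gp6 and Gp9). Pf4, platelet factor 4, had 36.2 ± 3.43 with UNC1999 and 14.2 ± 5.45 with JQEZ5, against 27.2 ± 2.59 with DMSO. Itga2b, the platelet partner of Itgb3, was at 21.6 ± 4.55 normalised counts with UNC1999 and 14.9 ± 5.2 with JQEZ5, against 14.3 ± 2.28 with DMSO (SD, n = 3 each). Dendritic cell markers, 4 of 10 with values, summed to 322 to 357 with UNC1999 and 322 to 362 with JQEZ5, against 461 to 516 with DMSO. All 4 had a lower mean with each inhibitor, and Clec10a, the only 1 tested, was called lower with both. Sums of T, NK and B cell, erythroid, stromal and mast cell markers reached at most 37.9 normalised counts in any library of the inhibitor table. The part of these markers in the subunit values was not tested, and in bulk RNA more or fewer cells of a type and more or less RNA per cell cannot be told apart.

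Tested genes were also ranked by how closely their levels tracked Itgb3 over the 9 inhibitor-table libraries. Predicted genes, pseudogenes, microRNA genes and bare identifiers were left out. The closest of the remaining genes were Meis1, a HOX cofactor of leukaemia stem cells, then Uba1, Rpn2, Helb and Ankrd13a. Their Pearson r with Itgb3 was 0.987, 0.987, 0.986, 0.981 and 0.977, across 9 libraries that form 3 groups and share the same DMSO controls. Meis1 averaged 334 normalised counts with UNC1999 and 350.2 with JQEZ5, against 476 with DMSO. The ratios of Itgb3 over DMSO, 0.476 with UNC1999 and 0.487 with JQEZ5, were lower than those of all 5 genes, of which Meis1 came lowest at 0.702 and 0.735.

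**Figure D3:**
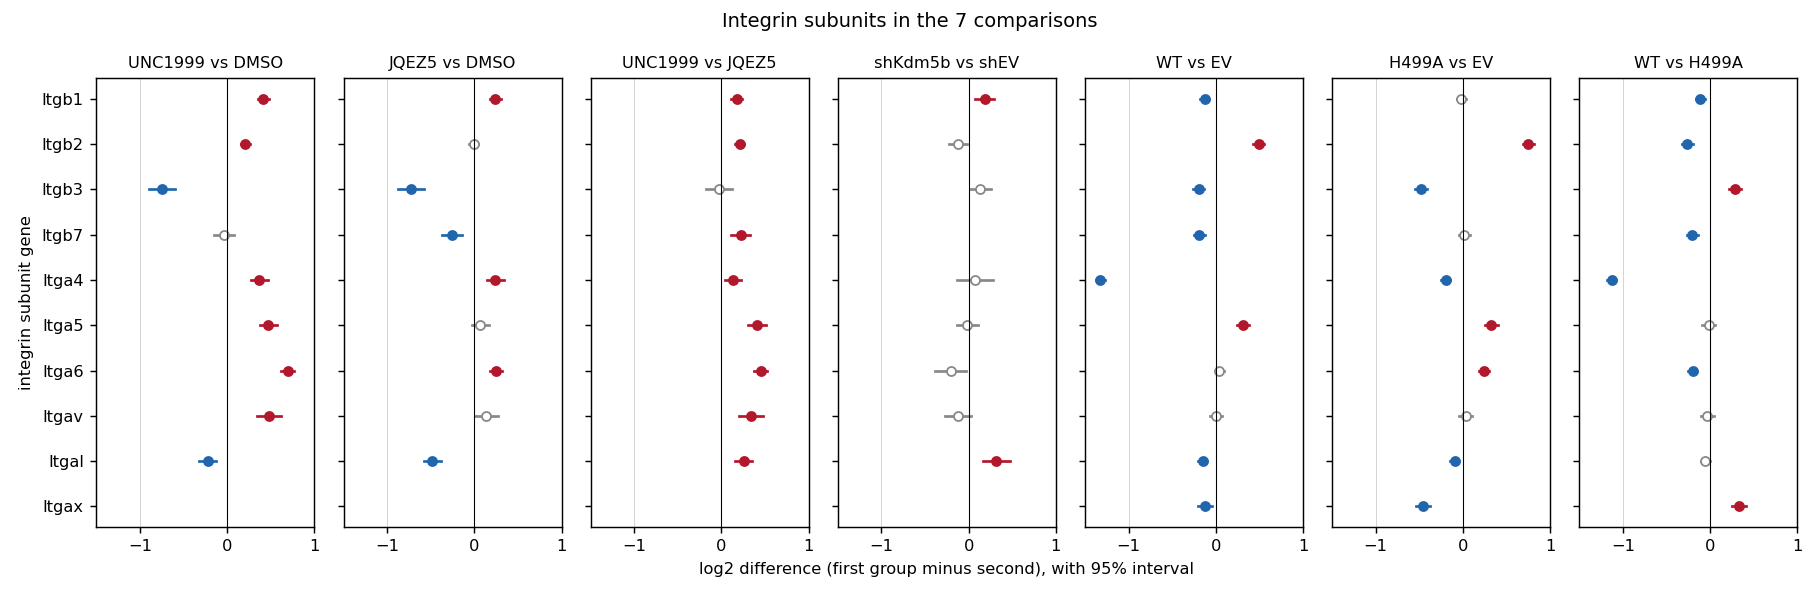
Log2 difference of each subunit in the 7 comparisons, first group minus second, with 95% intervals. Filled red points were called higher, filled blue points lower and open points were not called at a limma adjusted p under 0.05. The differences of Itga4 with WT, -1.33 ± 0.02 from EV and -1.13 ± 0.02 from H499A (SE), are the largest. Those of Itgb3 with both inhibitors, -0.75 ± 0.07 and -0.73 ± 0.07, and of Itgb2 with H499A against EV, 0.75 ± 0.03, come next.

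Knockdown of Kdm5b in NUP98-NSD1 cells raised Itgb1 and Itgal and left the other tested subunits without a call. Of 8 subunits tested, 2 were called, both higher, where 32.5% of all 10810 genes tested were called, 15% higher and 17.4% lower. The median log2 difference of the 8 was 0.03, beside -0.01 over all genes tested. The count was 6 without shKdm5b replicate 1, and 1 without shKdm5b replicate 2 or any 1 of the shEV libraries.

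Itgal had 1486, 1706 and 1889 normalised counts with shKdm5b, against 1318, 1268 and 1301 with shEV. All shKdm5b libraries were above all shEV libraries, and they spread more widely. The ratio was 1.31 and the log2 difference 0.31 ± 0.07 (SE, limma adjusted p = 0.00871). Itgb1 had 9147, 10223 and 9962 with shKdm5b, against 8532, 8514 and 8658 with shEV. Here too the groups did not overlap, with a ratio of 1.14 (limma adjusted p = 0.0214). The Itgb1 call was lost without shKdm5b replicate 2 or 3 or any 1 of the shEV libraries, at limma adjusted p of 0.0552 to 0.0923.

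The library shKdm5b replicate 1 stood apart from its 2 fellows in several subunits. For Itga4, shKdm5b libraries held 3033, 4108 and 3943 normalised counts, against 3418, 3494 and 3467 with shEV, so replicate 1 lay below all shEV libraries and the other 2 above them. Without it, 6 of the 8 subunits were called, where 51.4% of all genes were, 23.7% higher and 27.7% lower, with Itga4 (log2 difference 0.20, limma adjusted p = 0.000762) and Itgb3 (0.16, limma adjusted p = 0.0356) joining the higher ones. Itgb2 (-0.14, limma adjusted p = 0.0105) and Itga6 (-0.11, limma adjusted p = 0.0297) then fell. With all libraries, Itga4 had an interval of -0.13 to 0.28 log2 units around a ratio of 1.07 (limma adjusted p = 0.557).

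Other subunits leaned 1 way in all libraries without a call. Itgb3 had 186, 226 and 198 normalised counts with shKdm5b, against 172, 148 and 179 with shEV, each shKdm5b library above each shEV library (ratio 1.22, limma adjusted p = 0.0888). Itga6 had 2603, 3153 and 3373 with shKdm5b, against 3603, 3574 and 3465 with shEV, each shKdm5b library below (ratio 0.858, limma adjusted p = 0.0692). Itgb2 had 4059.8, 3854 and 3930.3 with shKdm5b, against 4455, 4136 and 4411 with shEV, again without overlap and lower, a ratio of 0.911 (limma adjusted p = 0.059). Counted over the 8 tested subunits, 6 had groups that did not overlap, as did 49% of all genes tested. The call of Itga6 appeared without shKdm5b replicate 3 (limma adjusted p = 0.0282). Itgav (ratio 0.899, interval -0.27 to 0.03 log2 units) and Itga5 (ratio 0.989, interval -0.14 to 0.11) were not called (limma adjusted p = 0.202 and 0.848).

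**Figure D4:**
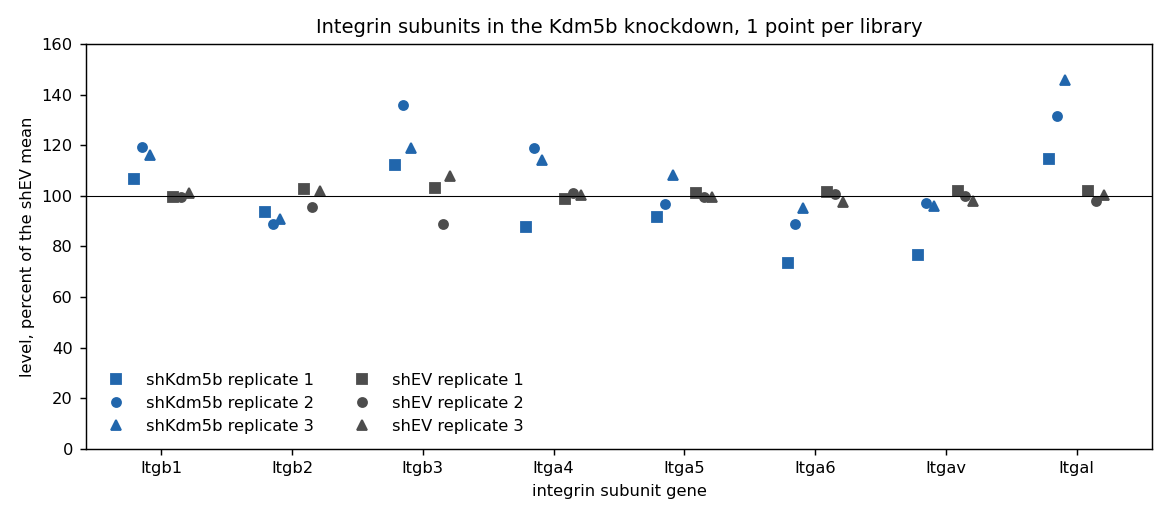
Level of the 8 tested subunits in each knockdown-table library, as a percent of the shEV mean, with shKdm5b points left of shEV points and 1 marker shape per replicate number. The square of shKdm5b replicate 1 is the lowest shKdm5b point for Itgb1, Itgb3, Itga4, Itga5, Itga6, Itgav and Itgal, and the highest for Itgb2.

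Itgb7 was the subunit with the largest ratio in the knockdown, from few reads. It had 48.1, 37 and 13.7 normalised counts with shKdm5b, against 2.6, 5.92 and 4.72 with shEV, and lay below the filter on low values. All shKdm5b libraries were above all shEV libraries, with replicate 3 the lowest of its group. Summed over libraries, 94 reads were counted with shKdm5b and 15 with shEV, a ratio of 7.87 after scaling for depth with an exact 95% interval of 4.54 to 14.6 that covers counting error only. Without the filter, the limma adjusted p was 0.0109. A basophil marker was higher in the same libraries. Mcpt8, a basophil protease, had 2644 ± 175 normalised counts with shKdm5b, against 72 ± 8.99 with shEV (SD, n = 3 each, limma adjusted p = 1.04e-08), and passed the filter only through its shKdm5b libraries. Of 9 mast cell and basophil markers, 2 had values, and their sum was 2499 to 2839.5 with shKdm5b, against 85.1 to 102 with shEV. Their part in the Itgb7 and Itgal values was not tested. Monocyte and macrophage markers, 9 of 12 with values, summed to 20872 to 23227 with shKdm5b, against 17519 to 17754 with shEV, with 3 of 9 tested markers higher and 6 lower. Neutrophil markers, 6 of 10 with values, summed to 1488 to 1628 with shKdm5b, against 767 to 890.3 with shEV, and both markers tested were higher. The part of these lists in the subunit values was not tested.

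In MLL-AF9 cells, WT Kdm5b lowered Itga4 steeply and raised Itgb2 and Itga5. Against EV, 8 of 10 subunits were called with WT, 2 higher and 6 lower, where 62.2% of all 9458 genes tested were called, 29.8% higher and 32.4% lower. With H499A 7 of 10 were called against the same EV libraries, 3 higher and 4 lower, with 49.6% of all genes called, 22.7% higher and 26.9% lower. A call was thus common in these cells for genes at large. The median log2 difference of the 10 subunits was -0.13 with WT and -0.001 with H499A, beside -0.01 and -0.01 over all genes tested. With 2 or 3 libraries per group, an exact permutation test of 1 gene cannot pass the threshold, so the calls rest on the spread pooled in the limma fit.

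Itga4 had 3727 and 3536 normalised counts with WT and 8635 and 8552 with H499A, against 9999 and 9885 with EV. WT libraries held far fewer than the others, H499A libraries came slightly under EV, and no groups overlapped. The log2 difference of WT from EV was -1.33 ± 0.02 (SE), a ratio of 0.365 (limma adjusted p = 2.5e-24), and it ranked 23 of 9458 genes by absolute difference. H499A stood at 0.864 times EV (limma adjusted p = 2.26e-07). WT stood at 0.423 times H499A, a log2 difference of -1.13 ± 0.02 (SE, limma adjusted p = 1.41e-22).

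Its β partners fell by less with WT. Itgb1 had 5332 and 5326 normalised counts with WT and 5841 and 5746 with H499A, against 5909.8 and 5843 with EV, so WT libraries were lowest at 0.907 times EV (limma adjusted p = 4.42e-05). Itgb7 had 1322 and 1321 with WT and 1605 and 1592 with H499A, against 1595 and 1555 with EV, and WT stood at 0.839 times EV (limma adjusted p = 5.36e-06). H499A was not called against EV for Itgb1, with an interval of -0.07 to 0.03 log2 units, or for Itgb7, with -0.04 to 0.08 (limma adjusted p = 0.536 and 0.668). WT was below H499A for Itgb1 at 0.92 times and for Itgb7 at 0.827 times (limma adjusted p = 0.00037 and 2.22e-06).

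Itgb2, the leukocyte β chain, rose with both constructs, and more with H499A. It had 2805 and 2946 normalised counts with WT and 3635 and 3456 with H499A, against 1919 and 1873 with EV. The groups were separate, at 1.52 and 1.87 times EV (limma adjusted p = 9.33e-14 and 1.92e-17), and WT stood at 0.811 times H499A (limma adjusted p = 3.8e-08). Of its α partners among the 10, Itgal and Itgax were lower. Itgal had 2643 and 2599 with WT and 2768 and 2713 with H499A, against 2935 and 2997 with EV, lower at 0.884 and 0.924 times EV (limma adjusted p = 2.8e-05 and 0.00416). The H499A call for Itgal was lost without H499A replicate 2 or EV replicate 2 (limma adjusted p = 0.0615 and 0.0554).

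Itgax, the CD11c gene, was the least abundant of the 10 per kb and had the lowest ratio to EV with H499A. It had 202 and 198 normalised counts with WT and 100.3 and 97.5 with H499A, against 243 and 252 with EV. The 3 groups were apart, with H499A lowest. The ratio to EV was 0.806 with WT and 0.399 with H499A (limma adjusted p = 0.0094 and 3.42e-10), and WT stood at 2.02 times H499A (limma adjusted p = 1.09e-07). The WT call was lost without EV replicate 2 (limma adjusted p = 0.0623). H499A libraries lay below the filter value of 145.2 normalised counts, so the gene passed the filter only through its WT and EV libraries. Dendritic cell markers, 5 of 10 with values, summed to 866 to 867 with WT and 1139 to 1219 with H499A, against 1534 to 1609 with EV, and their part in the Itgax values was not tested. Of the 2 tested, 1 was lower and 1 higher with each construct. The largest share was Flt3, a receptor that progenitors also carry, with 479.6 ± 15.4 with WT and 727 ± 20.4 with H499A, against 1393 ± 50.1 with EV (SD, n = 2 each). The marker that was higher was Ccr7, a chemokine receptor of migrating dendritic cells, with 264 ± 10.5 with WT and 292 ± 30.2 with H499A, against 105 ± 0.0767 with EV (limma adjusted p = 2.79e-10 and 3.84e-11), and it passed the filter only through the WT and H499A libraries.

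Itgb3 fell with both constructs, and more with H499A. It had 1108 and 1077 normalised counts with WT and 789 and 834 with H499A, against 1345 and 1303 with EV. No groups overlapped, at 0.825 and 0.613 times EV (limma adjusted p = 1.14e-05 and 2.5e-12), and WT was 1.35 times H499A (limma adjusted p = 5.16e-08). Its partner Itgav was not called in any comparison of these cells, with 658 and 636 with WT and 678 and 662 with H499A, against 628 and 661 with EV. The intervals of its log2 difference from EV were -0.07 to 0.08 with WT and -0.04 to 0.11 with H499A (limma adjusted p = 0.956 and 0.462).

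Of the matrix α chains, Itga5 rose with both constructs. It had 975 and 923 normalised counts with WT and 958 and 968 with H499A, against 652 and 702 with EV. WT and H499A libraries overlapped and both lay above EV, at 1.4 and 1.42 times it (limma adjusted p = 2.44e-08 and 1.63e-08), and the interval between WT and H499A was -0.09 to 0.06 log2 units. Itga6 had 2842 and 2746 with WT and 3323 and 3255 with H499A, against 2682 and 2717 with EV. H499A libraries were highest, at 1.22 times EV (limma adjusted p = 2.83e-08), while WT was not called against EV (interval -0.01 to 0.10 log2 units, limma adjusted p = 0.184).

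Compared directly, WT and H499A differed in 7 of 10 subunits, 2 higher with WT (Itgb3 and Itgax) and 5 lower (Itga4, Itgb1, Itgb2, Itgb7 and Itga6), where 54.4% of all genes were called, 28.2% higher and 26.3% lower. Monocyte and macrophage markers summed to 23139 to 23148 normalised counts with WT and 18629 to 18703 with H499A, against 7520.1 to 8147 with EV. Of 8 tested markers, 7 were higher and 1 lower with WT, and 7 were higher and 1 was not called with H499A. Neutrophil markers, 7 of 10 with values, summed to 1679.6 to 1691 with WT and 1137 to 1176 with H499A, against 525 to 536 with EV. Of the 7, 4 had a lower mean than EV with WT and 4 with H499A. Mmp8 was the only 1 tested, and it was higher with both constructs. Mast cell and basophil markers, 3 of 9 with values, summed to 942 to 1009 with WT and 994 to 1029.8 with H499A, against 1666 to 1668 with EV. T, NK and B cell markers, 3 of 12 with values, summed to 114 to 131 with WT and 204 to 223 with H499A, against 405 to 422 with EV. The part of these markers in the subunit values of MLL-AF9 cells was not tested.

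**Figure D5:**
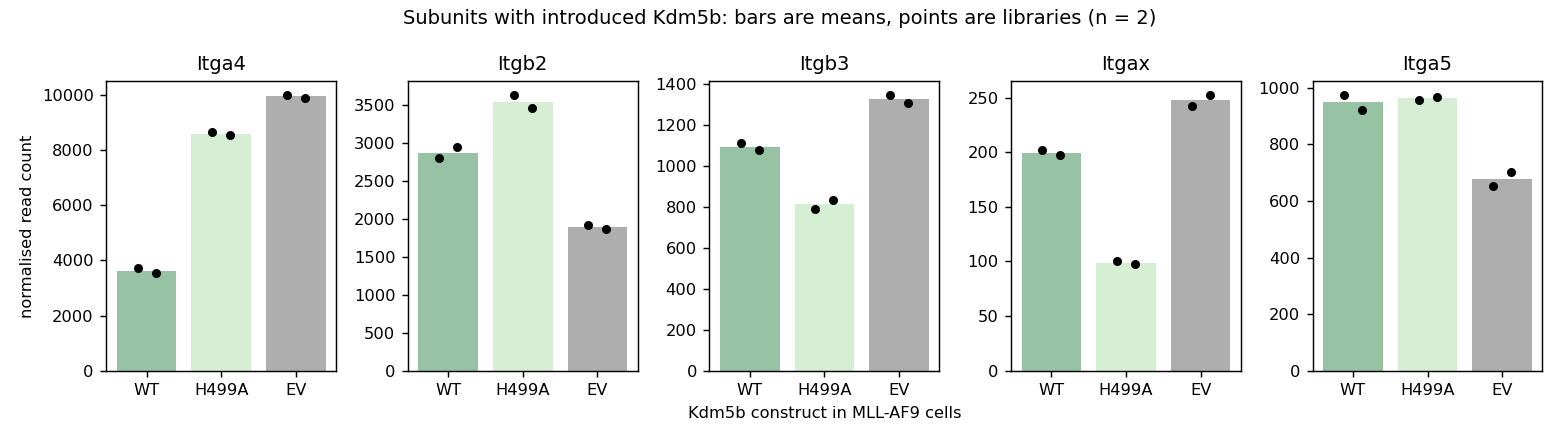
Normalised read counts of 5 subunits in MLL-AF9 cells with WT, H499A or EV, with bars for the mean and points for the 2 libraries of each group. Itga4 is lowest with WT, at a mean of 3632, while Itgb3 and Itgax are lowest with H499A, at 811 and 98.9, and Itgb2 is highest with H499A, at 3546.

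Over the 7 comparisons the subunits were tested 65 times, with 26 calls higher, 20 lower and 19 without a call. Of all genes tested, the share called per comparison ran from 23.6% with JQEZ5 against DMSO to 62.2% with WT against EV. The direct comparisons, UNC1999 with JQEZ5 and WT with H499A, use the same libraries as those with a control. The 65 are therefore not separate tests. Itgb3 was lower in each of the 4 comparisons with DMSO or EV. Itgal was lower with both inhibitors and both constructs, and higher with shKdm5b. Itga5 was called higher in 3 of the 5 comparisons with a control group in which it was tested, and lower in none. UNC1999 and JQEZ5 share their DMSO libraries and WT and H499A their EV libraries, so these directions are not independent of each other.

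Among subunits outside the 10, few passed the filter, and those that changed rose. Itgam, the αM chain that pairs with Itgb2 on myeloid cells, stood at 1.32 times DMSO with UNC1999, 1.41 times shEV with shKdm5b, and 2.04 and 1.63 times EV with WT and H499A (limma adjusted p = 2.88e-09, 0.00259, 3.86e-22 and 2.25e-18). Itgb5, another β partner of αv, stood at 1.16 times DMSO with UNC1999, and at 2.83 and 2.99 times EV with WT and H499A (limma adjusted p = 0.00102, 7.45e-20 and 3.91e-20). Itga8 rose to 2.23 times DMSO with UNC1999 (limma adjusted p = 1.16e-06). Of 16 such genes 3 were tested with UNC1999, and all 3 rose, as did 1 of 3 with JQEZ5, 1 of 2 with shKdm5b, 3 of 3 with WT and 2 of 3 with H499A, where the share of all genes called was 47.9%, 23.6%, 32.5%, 62.2% and 49.6% in these 5 comparisons, in that order. Their median log2 difference from the control was 0.39 with UNC1999, 0.03 with JQEZ5, 0.26 with shKdm5b, 0.96 with WT and 0.65 with H499A, where over all genes tested the 5 medians lay between -0.01 and 0.01.

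The intracellular machinery that switches integrins on moved in a mixed way. Of 24 tested activators and adaptors, 13 rose and 2 fell with UNC1999. Tns3, a tensin that links integrin tails to actin, stood at 1.54 times DMSO with UNC1999, and Flna, the actin crosslinker filamin A, at 1.22 (limma adjusted p = 2.01e-10 and 6.56e-07). With JQEZ5 6 rose and 2 fell, among them Tln1, the talin that activates β chains, at 0.858 times DMSO (limma adjusted p = 4.59e-05). With shKdm5b 7 rose and 4 fell, and Tln1 again was lower, at 0.736 times shEV (limma adjusted p = 0.000149). With WT 12 rose and 5 fell, with Vcl, the adhesion protein vinculin, at 0.277 times EV and 0.34 times H499A (limma adjusted p = 7.45e-20 and 1.18e-17). With H499A 11 rose and 6 fell, and Fyb, the adaptor ADAP, was higher with WT and H499A, at 1.63 and 1.47 times EV (limma adjusted p = 2.1e-16 and 6.07e-14). The called share of the list was 62.5% with UNC1999, 33.3% with JQEZ5, 45.8% with shKdm5b, 70.8% with WT and 70.8% with H499A, beside 47.9%, 23.6%, 32.5%, 62.2% and 49.6% of all genes tested in the same order. The median log2 difference of the list was 0.11 with UNC1999, 0.01 with JQEZ5, -0.02 with shKdm5b, 0.07 with WT and 0.05 with H499A, beside -0.01 to 0.01 over all genes tested.

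Of the signalling kinases and partners, 10 of 16 rose and 3 fell with UNC1999, against 2 and 3 with JQEZ5. Syk, the kinase downstream of β chains in myeloid cells, stood at 1.32 times DMSO with UNC1999 and 0.721 times shEV with shKdm5b (limma adjusted p = 5.87e-09 and 0.000176). Ptk2, focal adhesion kinase, stood at 2.18 times DMSO with UNC1999 (limma adjusted p = 0.000116). In MLL-AF9 cells 8 of 15 rose and 4 fell with WT, and 8 rose and 3 fell with H499A. With shKdm5b 5 of 15 rose and 1 fell. Calls made up 81.2% with UNC1999, 31.2% with JQEZ5, 40% with shKdm5b, 80% with WT and 73.3% with H499A of the kinase list, beside 47.9%, 23.6%, 32.5%, 62.2% and 49.6% of all genes tested in the same order. The list's median log2 difference was 0.12 with UNC1999, -0.0041 with JQEZ5, 0.07 with shKdm5b, 0.09 with WT and 0.10 with H499A, beside -0.01 to 0.01 over all genes tested.

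Several integrin ligands that the cells make themselves rose steeply. Of 9 tested ligand genes, 6 rose and 1 fell with UNC1999, and 4 rose and 1 fell with JQEZ5. Spp1, osteopontin, a ligand of αvβ3, stood at 5.33 and 3.38 times DMSO with UNC1999 and JQEZ5, and at 4.85 times shEV with shKdm5b (limma adjusted p = 4.92e-17, 4.81e-15 and 9.89e-07). Fn1, fibronectin, the ligand of α5β1 and α4β1, had 3623 ± 164 normalised counts with UNC1999 and 826 ± 19.6 with JQEZ5, against 756 ± 32.9 with DMSO (SD, n = 3 each). Fn1 was 4.39 times as high with UNC1999 as with JQEZ5 (limma adjusted p = 8.26e-14). Thbs1, thrombospondin, had 37022 ± 273 normalised counts with UNC1999 and 29396 ± 74.0 with JQEZ5, against 12288 ± 153 with DMSO (SD, n = 3 each). In MLL-AF9 cells Fn1 had 83 ± 8.94 normalised counts with WT and 492 ± 1.35 with H499A, against 44.8 ± 0.659 with EV (SD, n = 2 each). Thbs1 had 22.8 ± 1.08 with WT and 485 ± 2.21 with H499A, against 61.5 ± 9.21 with EV in these cells. Both matrix genes stood highest with H499A and passed the filter of 145.2 normalised counts only through the H499A libraries, and WT lay at 0.169 and 0.0471 times H499A (limma adjusted p = 6.63e-17 and 1.66e-19). With WT 5 of 9 ligand genes rose and 2 fell, with H499A 6 rose and 2 fell, and with shKdm5b 3 of 7 rose and 1 fell. The share of ligand genes called was 77.8% with UNC1999, 55.6% with JQEZ5, 57.1% with shKdm5b, 77.8% with WT and 88.9% with H499A, beside 47.9%, 23.6%, 32.5%, 62.2% and 49.6% of all genes tested in the same order. For the ligand genes tested, the median log2 difference was 0.65 with UNC1999, 0.10 with JQEZ5, 0.13 with shKdm5b, 0.09 with WT and 0.23 with H499A, beside -0.01 to 0.01 over all genes.

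Of the 10 tested membrane partners of integrins, mostly tetraspanins, 6 rose and 1 fell with UNC1999, 5 rose and 1 fell with JQEZ5, and 5 of 9 rose with shKdm5b. The tetraspanin Cd9 stood at 6.51 times DMSO with UNC1999 and 2.56 with JQEZ5 (limma adjusted p = 1.59e-08 and 0.000766), and it passed the filter of 59.0 normalised counts only through the UNC1999 libraries. Slc3a2, the CD98 heavy chain that binds β tails, stood at 1.35 and 1.26 times DMSO (limma adjusted p = 5.29e-07 and 2.97e-05). Cd53, another tetraspanin, rose in MLL-AF9 cells to 1.79 times EV with WT and 1.52 with H499A (limma adjusted p = 5.34e-18 and 1.21e-14), where 3 of 10 partners rose and 5 fell with WT, and 5 rose and 3 fell with H499A. Of the partners tested, the share called was 70% with UNC1999, 60% with JQEZ5, 55.6% with shKdm5b, 80% with WT and 80% with H499A, beside 47.9%, 23.6%, 32.5%, 62.2% and 49.6% of all genes tested in the same order. Over the partners tested, the median log2 difference was 0.18 with UNC1999, 0.11 with JQEZ5, 0.25 with shKdm5b, -0.07 with WT and 0.05 with H499A, beside -0.01 to 0.01 over all genes.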

How the data were processed

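The authors deposited 3 tables of log2 values after a variance-stabilising transformation. Per the submitters' processing notes, STAR 2.4.2, Salmon 0.1.19 and DESeq2 1.38.2 were used with builds mm10 and GRCm38.p4. The notes give no role for each. Per the labels' protocols, library kits were TruSeq v2 or NEBNext Ultra II, and the kit of each library is not given in the sources used here. The lowest log2 values were 6.88278, 7.43603 and 8.18232 in the inhibitor, knockdown and overexpression tables. Undoing the transformation gave normalised counts, of which 100% of values below 1000 reads were whole reads at a tolerance of 0.05. The tables list 14178, 15623 and 13949 genes. A gene was tested if its value exceeded the table's minimum by 1 log2 unit or more (59.0, 86.6 and 145.2 normalised counts) in a number of libraries equal to the size of the smallest group, which left 10694, 10810 and 9458. Limma 3.58.1 (R 4.3.3) was run per table on the deposited log2 values (1 mean per group, eBayes with trend), with Benjamini-Hochberg adjustment over all tested genes and a threshold of 0.05. The fit was tested on simulated data.

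Exon lengths came from GENCODE M21 (GRCm38) and promoter windows from RefSeq. In ranking genes by Pearson r with Itgb3, predicted genes, pseudogenes, microRNA genes and bare identifiers were left out. Every subunit is named whatever its value, with up to 4 called genes of lowest adjusted p per list and the 5 genes closest to Itgb3 in that ranking. Of the genes this rule names, 1 is not reported here. The members and lists were chosen with earlier results of these data known, so their counts are descriptions. The fits were repeated without the filter or with a filter of 2 log2 units, with libraries centred on their median or quantile-normalised, with the trend left out, with voom on the recovered counts, on the 2 groups compared alone, with the replicate number as a block, and without each library in turn. Replicate numbers came from the sample titles and were not used to pair libraries.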

Additional observations from a re-analysis of the deposited data

How the results depend on the processing

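Of the 65 tested subunit comparisons, 55 kept their side of the threshold under every alternative run, and 49 of these kept their direction too. The other 6 were not called and changed sign under at least 1 alternative, with values of at most 0.04 log2 units on either side of 0: Itgb7 with UNC1999 and Itgb2 with JQEZ5 against DMSO, Itgb3 between the inhibitors, Itga5 with shKdm5b, Itgav with WT against EV and Itga5 between WT and H499A. The 10 that crossed the threshold kept their sign, so no called value changed direction. The knockdown count of 2 called subunits is the least settled: leaving out 1 library gave 1 to 6, with 6 (4 higher and 2 lower) without shKdm5b replicate 1, and 1, Itgal, without shKdm5b replicate 2 or any shEV library. The counts of the other 6 comparisons stayed within 1.5 times the reported count. The deviations of same-numbered libraries from their group means correlated at -0.15 to 0.22. In the inhibitor and knockdown tables not every library correlated best with its own number. In the overexpression table all same-numbered pairs correlated negatively. Deviations from the mean of 2 or 3 libraries sum to 0, which makes some pairs correlate above 0 and others below. These correlations therefore do not settle whether the numbers pair the libraries. With the replicate block, 8, 6 and 8 subunits were called for UNC1999 and JQEZ5 against DMSO and against each other, 3 for shKdm5b (with Itga6, limma adjusted p = 0.0275), and 8, 7 and 7 for WT and H499A against EV and against each other. The Itga4 difference between UNC1999 and JQEZ5 was not called with quantile normalisation, without the trend or with only these groups (limma adjusted p = 0.0866, 0.0674 and 0.0505). Itga6 with WT against EV was called with quantile normalisation (limma adjusted p = 0.038), and Itgal with WT against H499A with median centring (limma adjusted p = 0.0316). The causes were not tested. Lengths from RefSeq were not run, and levels per kb by the coding length of GENCODE M21, chosen after seeing the data, differ from those by exon length for every gene. Depth limits Itgb7 in the knockdown, at 15 reads in all with shEV.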
